A study of Mus musculus with 11 samples.

Results

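The genes described here were 7 WNT ligands (Wnt2, Wnt2b, Wnt4, Wnt5a, Wnt5b, Wnt9a and Wnt10a), the secreted WNT antagonists Sfrp1 and Sfrp2, and Axin2, a direct transcriptional target of WNT signaling. They were chosen by name, and all 10 were found among the 54232 rows of the count table. Expression was measured by bulk RNA sequencing of 11 orthotopic pancreatic tumours in female C57BL/6 mice. The hosts carried CreERT2 at the Rosa26 locus and were either PKN2 fl/fl (KO, 6 tumours, A to F) or PKN2 +/+ littermates (WT, 5 tumours, A to E). All hosts received tamoxifen, and all were injected in the pancreas with TB32048 cells, a single mouse pancreatic ductal adenocarcinoma line with intact Pkn2. Per the study's methods the hosts were age-matched adults.

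The Rosa26 locus is active in most cell types, so the design did not restrict the deletion to fibroblasts, and in which host cells it took place was not measured in these data. Pkn2, the targeted gene, had a mean level of 96.6 ± 9.34 CPM in the 6 KO tumours (± SD) and of 96.7 ± 34.6 CPM in the 5 WT tumours, where CPM is the read count scaled to a common library total. Its log2 fold change, KO over WT, was -0.002 (SE 0.21, edgeR adjusted p = 0.996). These tumours contain carcinoma cells that carry intact Pkn2, and the deletion could not be checked from gene-level counts. For adult mice of this model the paper describes the deletion as penetrant, with a western blot of PKN2 in pancreas. Each tumour came from a separate animal, and p-values describe the spread between tumours from that 1 carcinoma line.

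WNT ligands are lipid-modified secreted proteins that bind Frizzled receptors together with LRP5/6 co-receptors or with ROR and RYK receptors. In the canonical branch, binding to Frizzled and LRP5/6 stabilizes beta-catenin, which enters the nucleus and, with TCF/LEF factors, activates targets such as Axin2. AXIN2 is a scaffold of the beta-catenin destruction complex, so its induction is a negative feedback and its transcript is widely used as a readout of the canonical branch. Secreted Frizzled-related proteins carry a Frizzled-like domain and can bind WNTs outside the cell. In the pancreas, WNT signaling takes part in development and regeneration, and in pancreatic carcinoma both carcinoma cells and stromal fibroblasts can produce ligands and antagonists.

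The core of the TCF/LEF binding motif, CTTTGA, was searched on both strands of RefSeq promoter windows of GRCm38.p6 that span the 250 bases before each annotated start. Among 32851 such windows it was present in 13.8%. Windows were found for 7 of the 10 genes, 9 windows in all, and 1 of them held the core. Wnt5a, Wnt10a and Sfrp1 had no entry. The window of Axin2, shown because Axin2 is the canonical target of the group, is chr11:108920099-108920348 on the plus strand and has no copy of the core. The window that held it, shown for comparison, belongs to an internal start of Wnt5b (chr6:119449387-119449636, minus strand), with the core in capitals and beginning at position -71 from the start. Both are printed 5′ to 3′ on the gene's strand. A match or its absence is a description of the letters only. Other forms of the motif and sequence outside these windows were not searched.
Axin2: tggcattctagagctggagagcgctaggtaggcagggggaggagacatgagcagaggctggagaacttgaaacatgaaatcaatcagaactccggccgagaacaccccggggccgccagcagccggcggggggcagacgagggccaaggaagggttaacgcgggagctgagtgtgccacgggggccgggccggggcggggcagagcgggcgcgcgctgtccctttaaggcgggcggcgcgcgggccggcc
Wnt5b: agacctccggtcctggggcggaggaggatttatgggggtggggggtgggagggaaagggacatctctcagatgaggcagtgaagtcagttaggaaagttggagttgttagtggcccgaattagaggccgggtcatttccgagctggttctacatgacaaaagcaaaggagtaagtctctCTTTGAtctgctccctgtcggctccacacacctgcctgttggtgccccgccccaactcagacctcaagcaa

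Total counts per tumour lay between 16294128 (WT B) and 31121422 (WT E), and a floor of 3 counts corresponded to between 0.0887 and 0.250 CPM. Counts in rRNA-derived genes (Gm42418, mt-Rnr1 and mt-Rnr2) took 6.39% of WT B, 1.31% of WT A and 1.40% of WT C, against 0.308% to 0.739% in KO tumours, 0.765% in WT D and 0.241% in WT E. WT A, B and C also stood apart in gene length: the rank correlation of a gene's deviation with its length was -0.496, -0.446 and -0.171 in them and between 0.100 and 0.372 in the other 8 tumours (16527 genes). Values without these 3 tumours are given where they change a result. The defining markers of pancreatic carcinoma epithelium (Epcam, Krt8, Krt18, Krt19, Cdh1 and Krt7) were all detected, with a summed level of 2657 to 5442 CPM in KO and 3086 to 9254 CPM in WT tumours.

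Sfrp1 and Axin2 had the largest KO over WT differences of the 10 genes. Neither passed an edgeR adjusted p of 0.05, and both passed by DESeq2. With edgeR, which tested 16536 genes, 0 of the 10 genes were called at that threshold, against 3 genes or 0.0181% of all genes. At an unadjusted p under 0.05, 2 of the 10 were higher in KO tumours and 0 were lower, while 8.57% of all genes were higher and 15.5% lower. By DESeq2, 2 of the 10 were called higher in KO at an adjusted p under 0.05, against 3.21% of all genes tested by it. The range of values in KO and WT overlapped for all 10 genes, whereas 3.6% of all genes had no overlap. The median log2 fold change of the 10 was 0.68, with 6 positive, against -0.03 over all tested genes, of which 48.0% were positive. The 10 genes were chosen with earlier results of these data known, so they are not an independent sample to set against all genes.

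**Figure D1:**
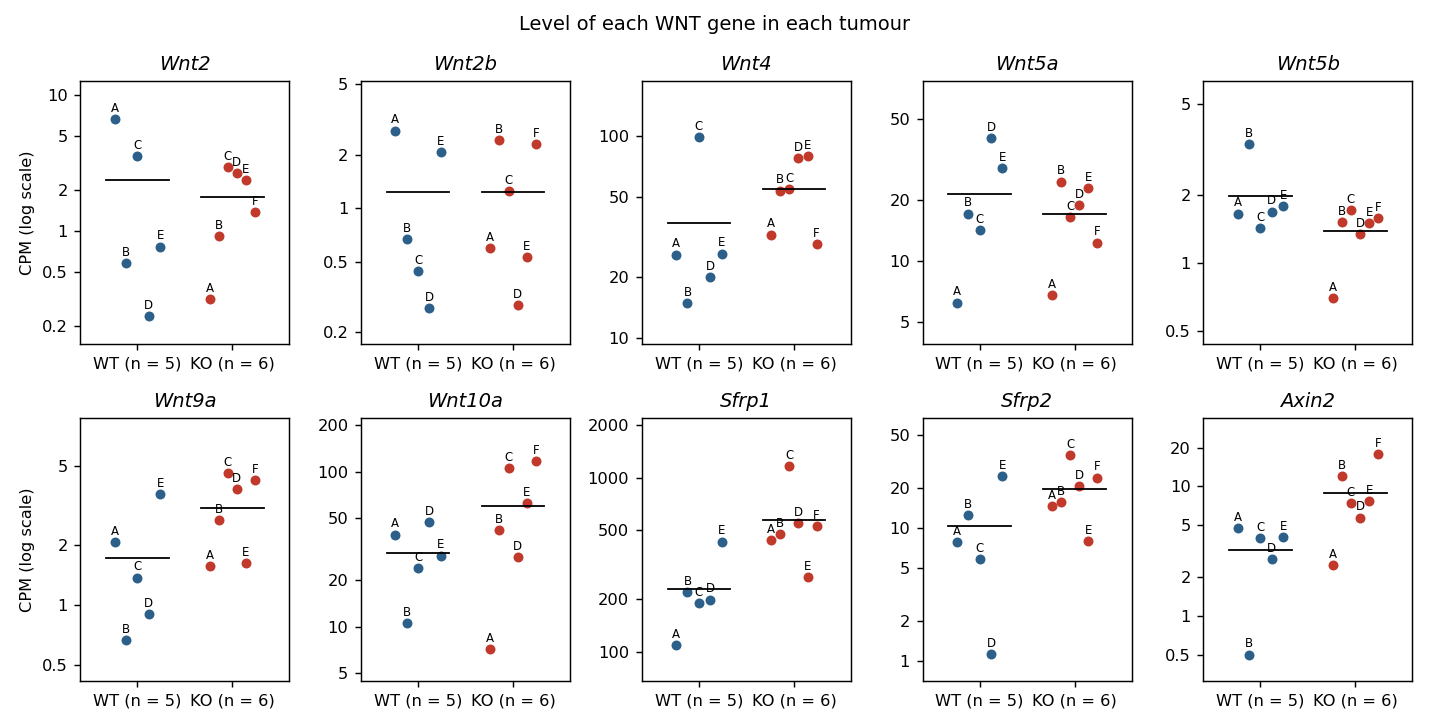
Level of each gene in each tumour in CPM on a log axis; points are tumours labelled by replicate letter, and bars are group means. The KO and WT points overlap in every panel, and for Sfrp1 and Axin2 5 of 6 KO tumours lie above all WT tumours.

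Sfrp1 encodes a secreted antagonist (Ensembl ENSMUSG00000031548, chromosome 8, 23411502 to 23449632, plus strand). It was present at 437, 473, 1164, 546, 268 and 529 CPM in KO tumours A to F, and at 108, 219, 191, 199 and 429 CPM in WT tumours A to E. KO C was the highest and WT A the lowest, 5 of 6 KO tumours were above every WT tumour, and 4 of 5 WT tumours were below every KO tumour, so that only KO E and WT E crossed. The means were 570 ± 308 CPM in KO (SD, n = 6) and 229 ± 119 CPM in WT (SD, n = 5). The log2 fold change was 1.31 (SE 0.39), with an edgeR unadjusted p of 0.00511 and an adjusted p of 0.0997. By DESeq2 it was 1.33 (SE 0.39, adjusted p = 0.0172). Without WT E the edgeR value was 1.67 (adjusted p = 0.0299), and without WT A, B and C together it was 0.86 (unadjusted p = 0.126 by edgeR).

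In bulk tumours, fewer cells of a type and less RNA per cell cannot be told apart, and the level of Sfrp1 was therefore set beside markers of the cell types a tumour piece can hold. The summed level of 9 fibroblast markers was 4540 to 9631 CPM in KO and 2593 to 9531 CPM in WT tumours, with means of 6847 and 4848 CPM. Of the 9 markers 8 had a positive log2 fold change (median 0.39) and none was at an unadjusted p under 0.05. WT E, with the highest Sfrp1 of its group, had the highest fibroblast sum. Per 1000 CPM of those markers, Sfrp1 was 88.3, 93.8, 121, 73.4, 59.1 and 55.7 in KO A to F and 41.8, 48.7, 43.3, 61.9 and 45.0 in WT A to E. WT E then lay among the other WT tumours, and 4 of 6 KO tumours stayed above the highest WT tumour, with the mean 1.70 times higher in KO. At an unadjusted p under 0.05, 4 of 4 B cell markers (summed 29.7 to 90.3 CPM in KO, 5.76 to 27.5 CPM in WT) and 4 of 5 neutrophil markers (210 to 2222 CPM in KO, 133 to 906 CPM in WT) were higher in KO. So were 2 of 5 macrophage markers, Adgre1 and Csf1r (summed 1120 to 1965 CPM in KO, 874 to 1334 CPM in WT), and 2 of 3 tested adipocyte markers, Adipoq and Plin1 (1.05 to 30.96 CPM in KO, 8.28 to 22.1 CPM in WT, over 4 markers). The third tested adipocyte marker, Cidec, had a log2 fold change of -0.69, and the mean adipocyte sums were 16.6 CPM in KO and 14.5 CPM in WT. Of 6 carcinoma epithelial markers all had a negative log2 fold change, 3 of them (Epcam, Krt18 and Krt19) at that level. The 6 acinar markers, which mark normal pancreas, summed to 1515 CPM in WT E and 573 CPM in KO E, the tumours that crossed for Sfrp1, and to 7.25 to 169 CPM in the other 9, and 1 of the 3 that were tested, Cela1, was lower in KO at that level. Their part in the result was not tested.

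**Figure D2:**
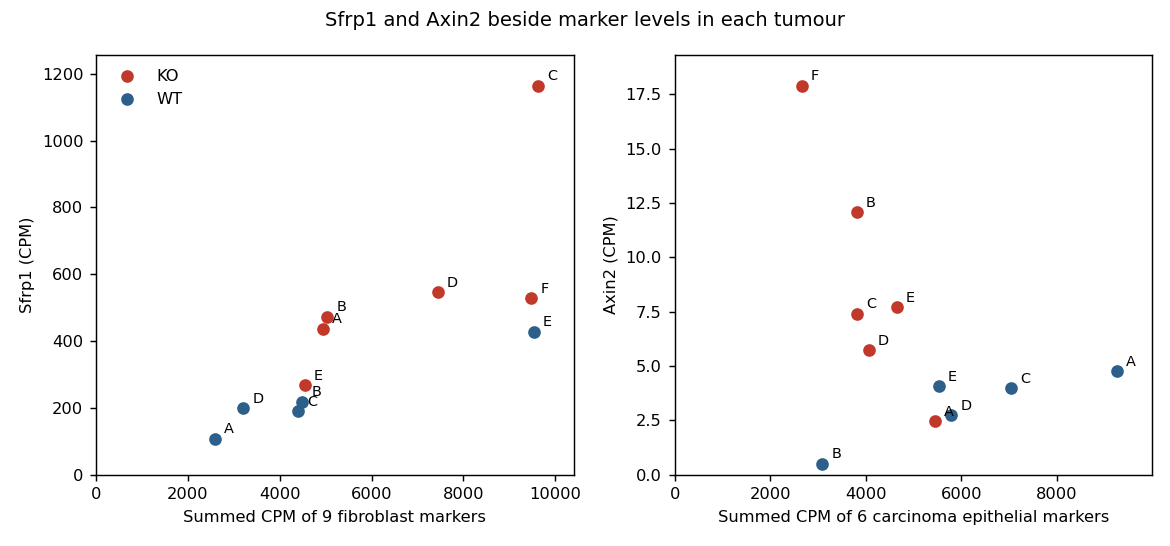
Left, Sfrp1 (CPM) against the summed CPM of 9 fibroblast markers, and right, Axin2 (CPM) against the summed CPM of 6 carcinoma epithelial markers; each point is a tumour labelled by its replicate letter. Sfrp1 in WT E, 429 CPM, goes with a fibroblast sum of 9531 CPM, and Axin2 is highest in KO F, which has the lowest epithelial sum.

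Axin2, the feedback target (ENSMUSG00000000142, chromosome 11, 108920349 to 108950783, plus strand), measured 2.45, 12.1, 7.41, 5.73, 7.72 and 17.9 CPM in KO A to F and 4.77, 0.501, 3.98, 2.74 and 4.08 CPM in WT A to E. KO F and KO B were the highest, and the 5 KO tumours other than KO A exceeded all WT tumours. WT B, with 6 counts, was the lowest of all 11. The mean was 8.88 ± 5.41 CPM in KO (SD, n = 6) and 3.21 ± 1.68 CPM in WT (SD, n = 5). The log2 fold change was 1.45 (SE 0.53, edgeR unadjusted p = 0.0177, adjusted p = 0.135), and by DESeq2 1.47 (SE 0.50, adjusted p = 0.0475). With the rRNA share as a covariate it fell to 0.67 (unadjusted p = 0.302 by edgeR), and without WT A, B and C it was 1.38 (unadjusted p = 0.0615 by edgeR). Set against 1000 CPM of carcinoma epithelial markers, 5 of 6 KO tumours lay above every WT tumour (0.450 to 6.73 in KO, 0.162 to 0.739 in WT). The epithelial sum was itself lower in KO, with means of 4070 CPM in KO and 6139 CPM in WT, which raises such a ratio in KO. Set against 1000 CPM of fibroblast markers, the ranges were 0.496 to 2.40 in KO and 0.111 to 1.84 in WT, and 2 of 6 KO tumours lay above every WT tumour.

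Sfrp2 (ENSMUSG00000027996, chromosome 3, 83766321 to 83774316, plus strand), which encodes the related antagonist, was at 14.7, 15.7, 35.8, 20.7, 8.04 and 24.1 CPM in KO A to F and 7.90, 12.6, 5.85, 1.14 and 24.9 CPM in WT A to E. The log2 fold change was 0.92 (SE 0.58, edgeR adjusted p = 0.338), and WT E lay above 5 of 6 KO tumours. Leaving out 1 tumour gave values from 0.63 (without WT D) to 1.55 (without WT E, edgeR unadjusted p = 0.0166, adjusted p = 0.0837), and without WT A, B and C it was 0.61. Sfrp1 made up 91.5% to 94.3% of the 2 antagonists per exon length in KO and 87.1% to 98.9% in WT. Summed, Sfrp1 and Sfrp2 were 65.1 to 283 CPM per kilobase in KO and 28.5 to 110 CPM per kilobase in WT.

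None of the 7 ligands passed the adjusted threshold with edgeR or DESeq2, and none was at an unadjusted p under 0.05 with edgeR. Wnt10a, a ligand that acts in canonical signaling (ENSMUSG00000026167, chromosome 1, 74791516 to 74804179, plus strand), differed 16.4-fold between its lowest and highest tumour. Its levels were 7.14, 41.8, 105, 28.2, 63.0 and 117 CPM in KO A to F and 39.2, 10.5, 23.9, 47.3 and 28.8 CPM in WT A to E. KO F and KO C were highest and KO A was lowest of all 11 tumours, so the KO range contained the WT range. The log2 fold change was 1.01 (SE 0.57, edgeR adjusted p = 0.292), and leaving out 1 tumour gave values from 0.71 (without KO F) to 1.25 (without KO A, edgeR unadjusted p = 0.0154, adjusted p = 0.166). It was 0.67 without WT A, B and C and 0.49 with the rRNA share as a covariate.

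Wnt4 (ENSMUSG00000036856, chromosome 4, 137277489 to 137299726, plus strand) was at 32.5, 53.8, 54.8, 77.7, 79.5 and 29.2 CPM in KO A to F, and at 25.9, 14.9, 99.1, 19.9 and 26.2 CPM in WT A to E. WT C was the highest of all tumours and the other 4 WT tumours were the lowest of all. The log2 fold change was 0.55 (SE 0.46, edgeR adjusted p = 0.475), and without WT C it was 1.33 (unadjusted p = 0.00135, adjusted p = 0.0894) and without WT B 0.35. Without WT A, B and C it was 1.25 (edgeR unadjusted p = 0.0134). Wnt9a (ENSMUSG00000000126, chromosome 11, 59306928 to 59333552, plus strand) ranged from 1.58 to 4.59 CPM in KO and from 0.668 to 3.61 CPM in WT, and KO over WT came to 0.82 on the log2 scale (SE 0.46, edgeR adjusted p = 0.291). Its highest WT value was WT E, and leaving out 1 tumour gave log2 fold changes from 0.63 (without WT B) to 1.28 (without WT E, edgeR unadjusted p = 0.0137, adjusted p = 0.0757). It was 0.45 without WT A, B and C and 0.51 with the rRNA share as a covariate.

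Wnt5a and Wnt5b encode ligands best known for signaling without beta-catenin, through receptors of the ROR family. Wnt5a (ENSMUSG00000021994, chromosome 14, 28504750 to 28527448, plus strand) was at 6.83, 24.6, 16.5, 18.9, 22.8 and 12.3 CPM in KO A to F and 6.25, 17.1, 14.2, 40.4 and 28.6 CPM in WT A to E. WT D and WT E were highest and WT A lowest, and the groups overlapped throughout. The log2 fold change was -0.33 (SE 0.42, edgeR adjusted p = 0.657), it was 0.039 without WT D, and without WT A, B and C together it was -1.02 (edgeR unadjusted p = 0.0272). Wnt5b (ENSMUSG00000030170, chromosome 6, 119432531 to 119544347, minus strand) spanned 0.700 to 1.70 CPM in KO and 1.43 to 3.34 CPM in WT, and KO over WT came to -0.49 on the log2 scale (SE 0.32, edgeR adjusted p = 0.360). It was -0.31 without WT A, B and C and -0.25 with the rRNA share as a covariate. The span of the gene overlaps that of Fbxl14 on the opposite strand, which had 672 to 2205 counts per tumour. Whether exons of the 2 genes overlap was not examined. Where they do, their reads can be told apart only if counting used strand.

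Wnt2 (ENSMUSG00000010797, chromosome 6, 17988940 to 18030585, minus strand) and Wnt2b (ENSMUSG00000027840, chromosome 3, 104945272 to 104961921, minus strand) were scarce. Wnt2 was at 0.315 to 2.96 CPM in KO and 0.235 to 6.68 CPM in WT, where WT A was highest, and its log2 fold change was -0.42 (SE 0.76, edgeR adjusted p = 0.757). Leaving out WT A turned it to 0.46. Wnt2b was at 0.285 to 2.42 CPM in KO and 0.274 to 2.73 CPM in WT, and KO over WT came to -0.02 on the log2 scale (SE 0.67, edgeR adjusted p = 0.985). For both genes the difference was smaller than its standard error.

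**Figure D3:**
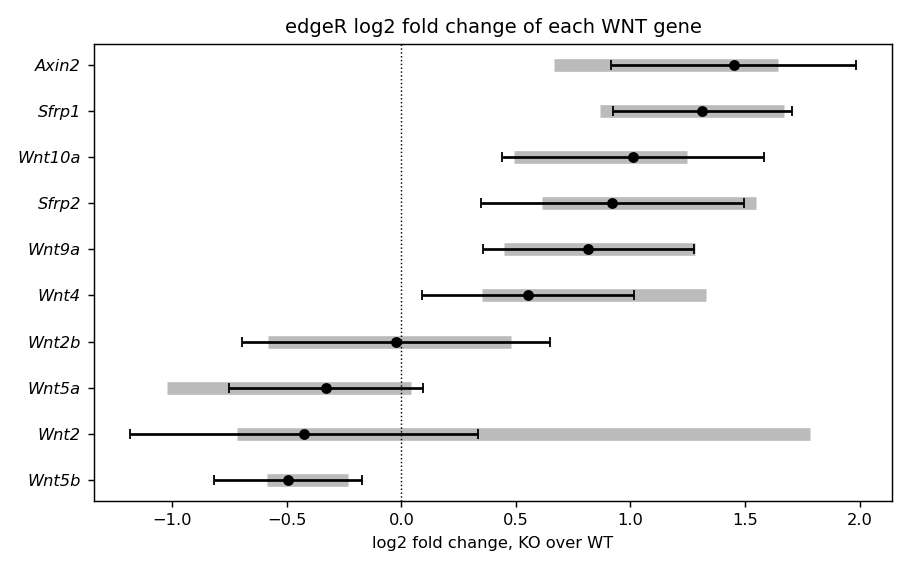
edgeR log2 fold change, KO over WT, for each gene; black bars are 1 SE and grey bars the range over all alternative settings tried. Axin2 and Sfrp1 have the largest values, 1.45 and 1.31, and the grey bars of Wnt2, Wnt2b and Wnt5a cross 0.

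Compared per exon length, Sfrp1 was the most abundant of the 10 genes, with a mean of 94.9 CPM per kilobase over the 11 tumours, and was above Wnt10a (18.9) in all 11. Wnt10a was above Wnt4 (11.1) in 8 tumours, Wnt4 was above Sfrp2 (7.24) in 7, and Sfrp2 was above Wnt5a (2.42) in 10. Axin2 (1.15), Wnt2 (0.903), Wnt9a (0.741), Wnt5b (0.623) and Wnt2b (0.294) followed. Below Wnt5a the order differed between the groups: the KO means were 1.61 for Axin2, 0.927 for Wnt9a, 0.783 for Wnt2 and 0.523 for Wnt5b, and the WT means were 1.05 for Wnt2, 0.744 for Wnt5b, 0.584 for Axin2 and 0.519 for Wnt9a, all in CPM per kilobase. The ranges of all neighbours in this order overlapped, and no test was made of it.

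Of the 19 WNT ligands measured, summed per exon length, the 7 named here gave 78.6% to 92.7% of the total in KO and 64.1% to 94.3% in WT tumours. Wnt10a was the leading ligand in 8 tumours and Wnt4 in KO A, KO D and WT C. In WT A the second ligand was Wnt7b, with 21.7%. The sum ranged from 15.97 to 67.5 CPM per kilobase in KO and from 15.4 to 47.1 in WT, and the ratio of Sfrp1 and Sfrp2 to all ligands ranged from 1.18 to 6.69 in KO and from 0.658 to 3.62 in WT.

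**Figure D4:**
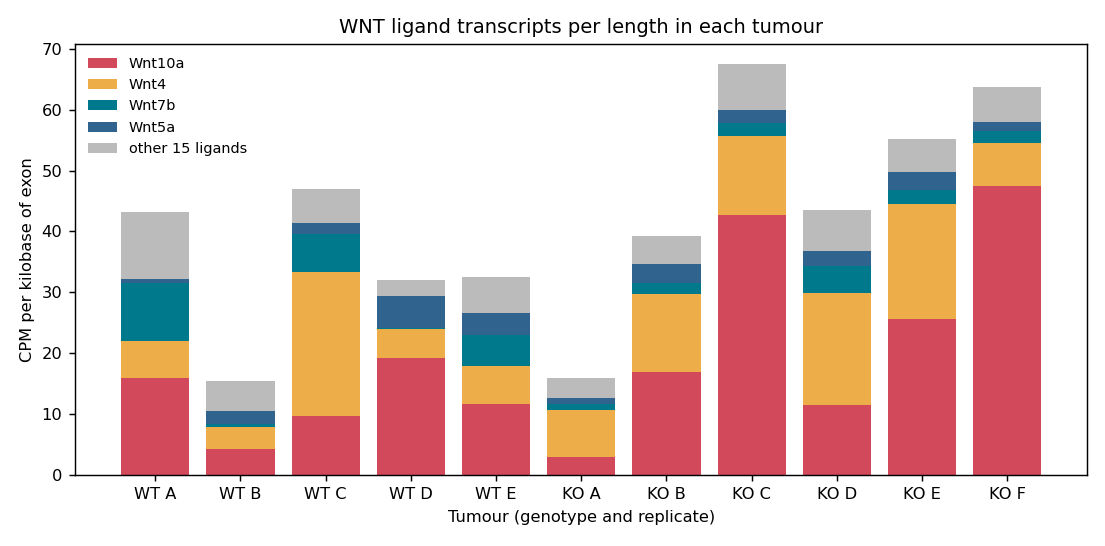
WNT ligand transcripts per tumour in CPM per kilobase of exon, stacked by ligand; Wnt10a, Wnt4, Wnt7b and Wnt5a are coloured and the other 15 ligands are grey. Wnt10a or Wnt4 forms the largest part in each of the 11 tumours.

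Beyond these 10 genes, 69 further WNT pathway genes were listed, of which 51 were tested. None passed the edgeR adjusted threshold (lowest adjusted p 0.0847, Fzd1), 6 were higher and 2 lower at an unadjusted p under 0.05, and 2 (Wls and Fzd1, both higher) passed with DESeq2. The background at that unadjusted level was 8.57% higher and 15.5% lower, and for DESeq2 it was 3.21% higher, so the count of 2 among these genes lies near the background. Without WT A, B and C together, 2 of these genes were higher and 4 lower at an unadjusted edgeR p under 0.05. In that setting 3031 of all 17605 tested genes were at that level in either direction. Fzd1, a Frizzled receptor, was at 131 ± 36.1 CPM in KO (SD, n = 6) and 69.5 ± 13.7 CPM in WT (SD, n = 5), with a log2 fold change of 0.91 (SE 0.22, DESeq2 adjusted p = 0.00782). Wls, the carrier that brings WNT proteins to the cell surface, differed by 0.82 on the log2 scale (SE 0.27, edgeR adjusted p = 0.112, DESeq2 adjusted p = 0.0498).

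Of the 19 ligands 12 were tested, 5 with a positive and 7 with a negative log2 fold change, and none was at an unadjusted p under 0.05. Wnt6, a scarce ligand, averaged 0.954 ± 0.601 CPM over KO tumours against 0.698 ± 0.0881 CPM over WT tumours. Of 13 listed secreted antagonists 6 were tested, and Sfrp1 alone was at that level. Among the others, Dkk3, of the Dickkopf family, differed by 0.61 on the log2 scale (SE 0.30, edgeR adjusted p = 0.232), and the Frizzled-related genes Frzb and Sfrp4 had 0.30 (SE 0.40) and -0.13 (SE 0.72).

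Of 4 tested R-spondin and secretion genes, Rspo1, an agonist that prolongs Frizzled presence at the surface, differed by 1.11 on the log2 scale (SE 0.45, edgeR adjusted p = 0.165). Among 17 tested receptors, 14 had a positive log2 fold change, and the non-canonical receptors Ror1 (0.59) and Ror2 (0.85) were higher and Ryk (-0.36) lower at an unadjusted p under 0.05, as was Fzd7 higher (0.76), which was named after its values were seen. Porcn, the enzyme that lipidates WNT proteins, averaged 47.3 ± 22.6 CPM over KO tumours against 51.0 ± 13.8 CPM over WT tumours, and its log2 fold change was -0.11 (SE 0.35). Of 13 transducers, only Tcf7l2, a TCF/LEF factor, was below that level (-0.71, edgeR adjusted p = 0.176). Ctnnb1, which encodes beta-catenin, averaged 884 ± 131 CPM over KO tumours against 969 ± 388 CPM over WT tumours, and its log2 fold change was -0.13 (SE 0.26), and the destruction complex genes Axin1 and Gsk3a had 0.28 (SE 0.16) and 0.24 (SE 0.15). Of 12 tested feedback targets, Axin2 alone reached it. The other 11 had a median log2 fold change of 0.12; Lgr5 was 1.41 (SE 0.69, edgeR adjusted p = 0.232) and Nkd2 0.75 (SE 0.38, edgeR adjusted p = 0.247), and Myc was -0.33 and Ccnd1 0.10. Of these 11, 8 had a positive and 3 a negative value.

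**Figure D5:**
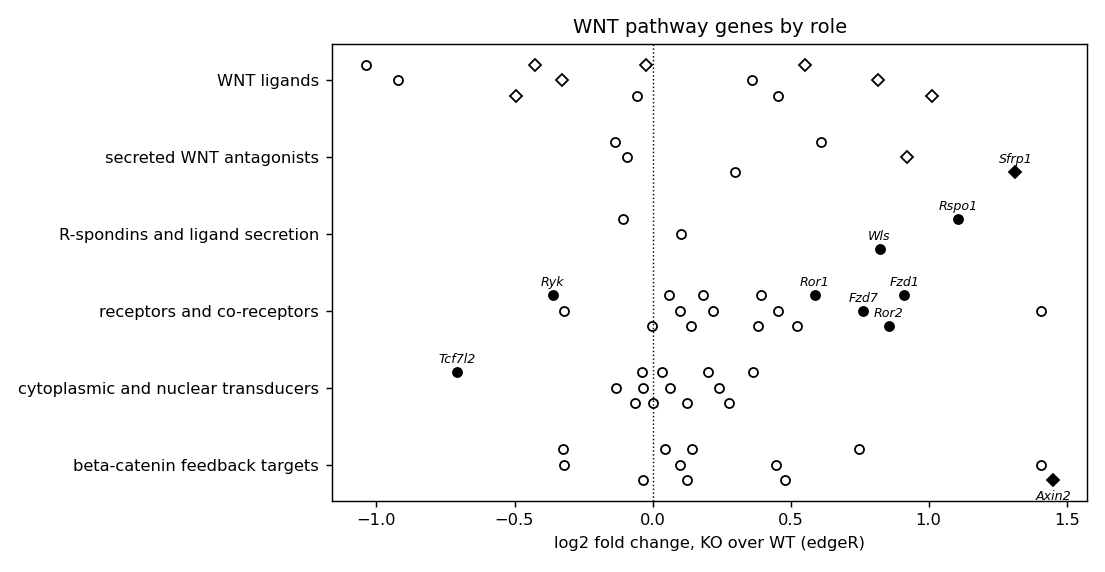
edgeR log2 fold change, KO over WT, of the tested WNT pathway genes by role; diamonds are the 10 genes described here, circles the other genes, and filled symbols an unadjusted p under 0.05. The filled symbols of positive value are Sfrp1, Axin2, Rspo1, Wls, Fzd1, Fzd7, Ror1 and Ror2, and those of negative value Ryk and Tcf7l2.

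The genes whose pattern over the 11 tumours was nearest to Sfrp1 in centred log2(CPM + 1) were Cyp1b1, Mmp2 and Chl1, at a mean absolute difference of 0.237, 0.248 and 0.257, where Sfrp1 itself deviated by 0.770 on average. For Axin2, which deviated by 0.728, they were Ly75, Slfn9 and C1s1, at 0.293, 0.317 and 0.338. For Wnt5a, which deviated by 0.568, they were Gm49284, Cubn and Trp53bp1, at 0.231, 0.233 and 0.269. The comparison was made over 14897 genes and is a description of closeness in 11 tumours.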

How the data were processed

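Tumour pieces were kept in RNAlater, and strand-specific libraries were sequenced as read pairs. Per the labels and the study's methods, the authors trimmed reads with Trimmomatic, aligned them by strand with HISAT2 (version 2.1.0) to GRCm38 and counted unique exonic reads on the same assembly, GRCm38.p6, with HTSeq (version 0.11.2). The deposited raw counts are whole-number reads per Ensembl gene, and the deposited normalized table was not used. The strand setting of HTSeq and the gene annotation release were not given in the sources used here.

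Symbols, coordinates and exon lengths came from GENCODE M21, which matched 54165 of 54232 rows. KO was tested against WT by edgeR (version 4.0.16, quasi-likelihood F-test) on the counts, with TMM scaling and its filter on low counts. P-values were adjusted by Benjamini-Hochberg over all 16536 tested genes. DESeq2 (version 1.42.0) was an alternative. CPM used TMM-scaled library sizes, and 1 CPM was added before logs in the search for genes of nearest pattern. Log2 fold changes came from fits to the counts, without that addition. The correlations with gene length and between replicate letters used log CPM as edgeR computes it. Total counts were 16294128 to 31121422 per tumour, and their part in the precision was not tested. The scripts were tested on simulated data.

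Groups came from the sample titles, which give no batch. Replicate letters belong to different animals and did not pair the tumours. Genes named beyond the 10 were, per pathway list, the 3 with the lowest p and the 2 with the highest level per length. The 10 genes, the lists and the tests were chosen with earlier results of these data known. Other alternatives were RLE scaling, other count filters, covariates for rRNA share and replicate letter, a gene length offset, and leaving out tumours.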

Additional observations from a re-analysis of the deposited data

Results flagged for a closer look

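In 20 groups examined (10 genes in 2 genotypes), 2 held a tumour well separated from its group, both for Wnt5b, and chance alone would give about 1 such group. In KO, KO A was lowest at 0.700 CPM, with the other 5 tumours at 1.34 to 1.70 CPM. In WT, WT B was highest at 3.34 CPM, with the other 4 tumours at 1.43 to 1.77 CPM. Without KO A the log2 fold change of Wnt5b was -0.36, and without WT B it was -0.23.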

How the results depend on the processing

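Of 186 alternative log2 fold changes of the 10 genes, over 19 alternatives, 173 kept their direction. Sfrp1 lay between 0.86 and 1.67 and Axin2 between 0.67 and 1.65. Members called higher at an adjusted p under 0.05 were 0 with edgeR, 2 with DESeq2 and, leaving out each tumour in turn, 0 to 1, the 1 being Sfrp1 without WT E. At an unadjusted p under 0.05, 2 were higher. This became 1 with at least 10 counts in every tumour (Axin2 was then not tested), 1 with the rRNA share covariate, 1 without WT A, B and C together (Axin2 and Sfrp1 were then at 0.0615 and 0.126, and Wnt4 was the one), and 2 to 4 leaving out each tumour. Without WT A, B and C, 1 was lower (Wnt5a), where there had been 0. Of the other pathway genes, the 6 higher became 2 with the rRNA covariate, 2 without WT A, B and C, and 2 to 9 leaving out each tumour. The 2 lower became 1 with DESeq2, RLE scaling or no filter, 0 with the rRNA covariate or the replicate block, 4 without WT A, B and C, and 0 to 3 leaving out each tumour. With the replicate block, 2 of the 10 genes were higher, Sfrp1 and Wnt4, and Axin2 was not (1.11). Letters did not pair the tumours (correlations of deviations -0.135 to 0.118).

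Wnt2 reversed with the rRNA covariate (0.068), the replicate block (0.41), without WT A, B and C (1.78) and without WT A (from -0.72 to 0.46 leaving out each tumour). Wnt2b reversed with DESeq2 (0.0015), no filter (0.016), without WT A, B and C (0.062), and without single tumours (from -0.34 to 0.48 over all of them). Wnt5a reversed without WT D (from -0.56 to 0.039 leaving out each tumour). The cause was not tested. Over all genes, calls at an adjusted p under 0.05 were 3 higher and 0 lower with edgeR, 595 and 900 with DESeq2, 104 and 158 with the length offset, 203 and 651 without WT D, and 608 and 1248 without WT E. Low counts limit Wnt2, Wnt2b, Wnt9a and Axin2, each with fewer than 10 counts in its lowest tumour. Wnt5b was also scarce, at 20 to 60 counts per tumour.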

Other observations

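Wnt7a and Wnt7b, ligands commonly expressed in epithelia, varied widely within the WT group. Wnt7b was at 46.1, 30.3 and 24.8 CPM in WT A, C and E and at 2.34 and 1.41 CPM in WT B and D, while the 6 KO tumours lay between, at 5.15 to 21.7 CPM. Wnt7a was also highest in WT A (12.4 CPM) and lowest in WT D (0.587 CPM). Their log2 fold changes, KO over WT, were -0.92 (SE 0.70, edgeR adjusted p = 0.429) and -1.04 (SE 0.63, edgeR adjusted p = 0.323). Wnt3a and Wnt8a had no counts in any tumour.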
